A study of Mus musculus with 12 samples.

Results

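The genes described here are the 34 genes of excitation-contraction coupling and calcium handling in skeletal muscle, taken from the 55487 genes of the deposited count table by matching Ensembl identifiers to their symbols. They were measured by RNA sequencing in C2C12 myotubes, the multinucleated cells that form when this clonal line of mouse myoblasts is placed in low serum. Myotubes were formed over 5 days in 2% horse serum and were then given medium with 4% horse serum (libraries 1 to 6) or 4% STEM (libraries 7 to 12) for 24 h. STEM is the cell-free secretome of human embryonic stem cells that were partially differentiated, and it replaced horse serum in the medium, so that the effects of adding the one and removing the other cannot be told apart. The question addressed was which of these genes differed between the media, with all 12 libraries and again without horse serum library 6, which stood apart from the others of its group. The labels do not say whether libraries came from separate cultures, so that p-values measure only the spread between these libraries, which may be technical.

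In skeletal muscle, the action potential runs into the T-tubules, where the voltage sensor, an L-type calcium channel, opens the ryanodine receptor of the sarcoplasmic reticulum by direct contact. Calcium released in this way starts contraction, and SERCA pumps return it to the store, where calsequestrin binds it. Triads, the junctions where both membranes meet, are built by junctophilins, triadin and related proteins, and myotubes in culture form them only in part.

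The libraries held between 13285472 and 24536264 counts. Every one of the 14 myotube markers was expressed, with a summed level of 20350 to 22940 CPM (counts scaled to the normalized total of each library) in horse serum libraries 1 to 5, 12890 in horse serum library 6 and 18480 to 24520 in the STEM libraries. The 12 markers of undifferentiated or cycling myoblasts summed to between 968.6 and 1296 CPM in horse serum libraries 1 to 5, to 1311 in library 6 and to between 671.8 and 787.1 with STEM. These sums join genes that moved in opposite directions. With all libraries, edgeR called 7 of the 12 myoblast markers lower and 3 higher (Msc 2.08-fold, Id1 1.55-fold, Id3 1.65-fold). Of the 14 myotube markers, 2 were lower (Myog 0.821-fold, Myh8 0.421-fold) and 2 higher (Mymk 1.28-fold, Myh4 2.38-fold). Without library 6, 7 of the 14 were lower and 2 higher. The myoblast markers were called for 83.3% in both comparisons and the myotube markers for 28.6% and 64.3%. Over all genes tested, 36.4% and 50.8% were called. Of 12 markers of fibroblasts, immune, endothelial and neuronal cells, 9 were below 1 CPM in every library, among them Kdr and Rbfox3 at 0 counts, and the list summed to 21.83 to 32.21 CPM. The other 3 were Pdgfra (up to 24.71 CPM), Dcn (up to 9.933) and Cd68 (up to 4.653). None of them was called with all libraries. Without library 6, Pdgfra was higher with STEM (1.59-fold, edgeR adjusted p = 2.48e-06), which was 33.3% of the 3. In bulk RNA, fewer cells of a type and less RNA per cell cannot be told apart, and the part of these markers in the results was not tested.

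With STEM, triadin and calsequestrin 2, which sit together at the release site, fell most, while both ryanodine receptors, the voltage sensor and the pump SERCA2 were higher. Calsequestrin 1 fell as well, but in edgeR and DESeq2 passed only without library 6. Of the 31 genes of the set that passed the filter on low counts, 12 were differentially expressed with all 12 libraries (38.7%, quasi-likelihood test of edgeR, Benjamini-Hochberg adjusted p up to 0.05 over 14175 genes), against 36.4% of all genes tested. Of these, 7 were higher and 5 lower with STEM, where 18.9% of all genes were called higher and 17.4% lower. Without horse serum library 6, the number was 17 of 31 (54.8%), 9 higher and 8 lower, against 50.8% of 14267 genes, of which 26.3% were higher and 24.5% lower. Both shares were thus near those of all genes. The 12 genes called with all libraries were called again in the same direction without library 6, 5 more were called only then, and 14 passed in neither comparison. The median log2 fold change of the 31 genes was 0.03 with all libraries and 0.0048 without library 6, beside 0.01 and 0.0084 over all genes tested. The libraries of the groups did not overlap for 7 of the 31 genes (5 higher, 2 lower), against 17.2% of all genes, and without library 6 for 12 (6 higher, 6 lower), against 33.3%.

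**Figure D1:**
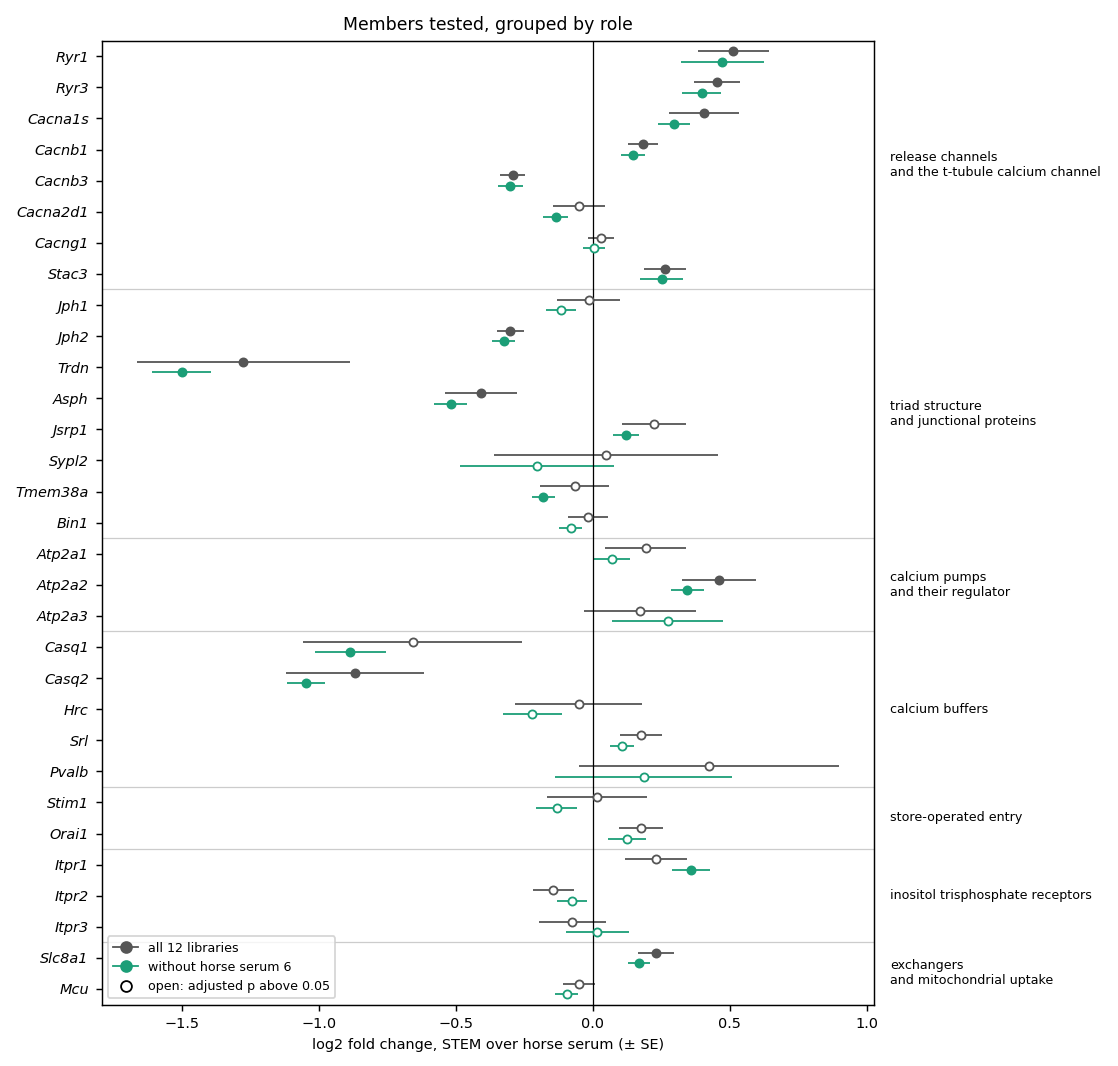
Log2 fold change of STEM over horse serum (x axis, ± SE) of the 31 genes tested, grouped by role (right), with all 12 libraries (grey) and without horse serum library 6 (green); filled points had an adjusted p of 0.05 or less. Trdn, Casq2 and Casq1 lie farthest to the left, at -1.50, -1.05 and -0.89 without library 6, and leaving that library out shortens the error bars of Trdn from 0.39 to 0.11.

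Promoter sequences from RefSeq (build GRCm38.p6) are shown for the calsequestrin genes, which fell together, and for the voltage sensor gene, which rose. A window of the 250 bases before the start was used for 21 of the 34 genes. It was searched on both strands for CAGCTG, for CAGGTG and for the MEF2 motif, letters that factors of the muscle programme are known to bind, and matches are in capitals. The Cacna1s window is cut to 189 bases because the remaining 61 lie in an annotated exon. The windows are chr1:172219896-172220145 (minus strand) for Casq1, chr3:102086165-102086414 (plus strand) for Casq2 and chr1:136052561-136052749 (plus strand) for Cacna1s.
Casq1: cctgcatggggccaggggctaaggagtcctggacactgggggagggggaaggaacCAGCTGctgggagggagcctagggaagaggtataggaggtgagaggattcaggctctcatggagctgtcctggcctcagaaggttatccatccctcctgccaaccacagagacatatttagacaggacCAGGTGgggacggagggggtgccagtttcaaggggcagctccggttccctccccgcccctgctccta
Casq2: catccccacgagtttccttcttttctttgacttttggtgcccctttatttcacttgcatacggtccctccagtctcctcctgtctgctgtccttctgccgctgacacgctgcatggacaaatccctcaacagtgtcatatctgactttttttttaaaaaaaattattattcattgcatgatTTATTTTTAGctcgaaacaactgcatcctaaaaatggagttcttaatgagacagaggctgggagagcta
Cacna1s: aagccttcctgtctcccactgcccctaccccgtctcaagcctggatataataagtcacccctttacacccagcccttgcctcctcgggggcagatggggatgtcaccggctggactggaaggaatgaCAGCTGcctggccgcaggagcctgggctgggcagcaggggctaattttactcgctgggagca
Casq1 held CAGCTG and CAGGTG, Casq2 the MEF2 motif and Cacna1s CAGCTG. Over the 21 genes, CAGCTG was found for 8 (Casq1, Cacna1s, Jph2, Sypl2, Orai1, Hrc, Atp2a1 and Slc8a3), CAGGTG for 1 and the MEF2 motif for 2 (Casq2 and Pvalb). Of all 32851 windows, 13% held CAGCTG, 17.2% CAGGTG and 2.92% the MEF2 motif. These shares count windows, whereas the 21 are counted as genes and a gene such as Jph2 has more than a single window, so that they are not like for like. Among the 8 genes whose window held CAGCTG the voltage sensor gene was called higher and Jph2 lower in edgeR in both comparisons. Casq1 was called lower only without library 6, 4 passed in neither comparison and Slc8a3 was below the filter. Over all genes tested, 36.4% were called with all libraries and 50.8% without library 6, and with so few genes a difference was not tested. Such matches describe the letters of the windows only.

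Of the release channels and the T-tubule calcium channel, 8 of 9 genes were tested. With all libraries, 5 were higher (Ryr1, Ryr3, Cacna1s, Cacnb1, Stac3) and 1 lower (Cacnb3), and without library 6 Cacna2d1 was also lower. The share called was 75% of the 8 and then 87.5%, against 36.4% and 50.8% of all genes. With so few genes this difference was not tested. Ryr1 (ENSMUSG00000030592, chromosome 7, 29003344 to 29125179), the release channel of the sarcoplasmic reticulum, was at 173.1, 204, 188.4, 182.5, 236.4 and 165.7 CPM in horse serum libraries 1 to 6 and at 232.6, 257.7, 269.6, 202.4, 317.4 and 361.5 CPM in STEM libraries 7 to 12. Horse serum library 5 lay above 2 of the STEM libraries, so that the groups overlapped, and STEM libraries 11 and 12 were highest. Its log2 fold change was 0.51 ± 0.13 (SE), an increase of 1.43-fold with an adjusted p of 0.00763 in edgeR, and 0.47 ± 0.15 without library 6 (adjusted p = 0.026). This second call was lost when STEM library 11 or horse serum library 1, 3 or 4 was left out as well (adjusted p between 0.0516 and 0.0647).

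Ryr3 (ENSMUSG00000057378, chromosome 2, 112631355 to 113217096), a second ryanodine receptor that is found in developing muscle, was at 60.76, 66.81, 63.89, 71.64, 75.96 and 52.9 CPM with horse serum and at 84.09, 87.56, 83.26, 81.62, 93.43 and 106.6 CPM with STEM. All STEM libraries lay above all horse serum libraries. The log2 fold change was 0.45 ± 0.09 (edgeR adjusted p = 0.000845) and 0.40 ± 0.07 without library 6 (adjusted p = 0.000315). The genes Ryr3 and Aven overlap on opposite strands, with 15276 and 1445 counts in all, and whether the counting used the strand is not given in the sources used here.

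Cacna1s, the pore subunit of the voltage sensor, ranged from 74.8 to 142.5 CPM (median 130.1) with horse serum and from 144.3 to 183.5 CPM (median 158.3) with STEM. The groups did not overlap, and horse serum library 6 was the lowest by far. Its log2 fold change was 0.41 ± 0.13 (edgeR adjusted p = 0.0236) and 0.30 ± 0.06 without library 6 (adjusted p = 0.000591). The first call was lost without the filter on low counts (adjusted p = 0.093) and without STEM library 7 or 12 or horse serum library 1 (adjusted p between 0.0505 and 0.0514).

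The genes of calcium channel beta subunits in the set moved in opposite directions. Cacnb1, the beta subunit of the skeletal muscle channel, was at 104 to 129.6 CPM with horse serum and 130.3 to 144.7 CPM with STEM. Its log2 fold change was 0.18 ± 0.06 (edgeR adjusted p = 0.0168). Cacnb3, a beta subunit better known from other excitable cells, was at 65.95 to 70.09 CPM with horse serum and 52.61 to 62.25 CPM with STEM. This gene had a log2 fold change of -0.29 ± 0.05 (edgeR adjusted p = 0.000221). Neither gene's groups overlapped, and both calls held without library 6, at 0.15 ± 0.04 and -0.30 ± 0.05. The ratio of Cacnb1 to Cacnb3 per length of exon was between 1.40 and 1.70 in the horse serum libraries and between 1.87 and 2.37 in the STEM libraries.

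Stac3, an adaptor that the voltage sensor needs for coupling, was at 37.97 to 46.22 CPM with horse serum and 41.81 to 57.46 CPM with STEM, with overlap between the groups. Its log2 fold change was 0.26 ± 0.08 (edgeR adjusted p = 0.0152), and 0.25 ± 0.08 without library 6. Cacna2d1, the alpha-2-delta subunit, had a log2 fold change of -0.05 ± 0.09 with all libraries and -0.14 ± 0.04 without library 6 (adjusted p = 0.0158), a call that was lost without horse serum library 5 (adjusted p = 0.0523) or with library totals only (adjusted p = 0.0795). In limma-voom it was called lower with all libraries (-0.13, adjusted p = 0.0267). Cacng1, the gamma subunit, was at 136.5 to 157.8 CPM in the STEM libraries and 142.4 to 151 CPM in horse serum libraries 1 to 5, and passed in neither comparison. Cacna1h, a T-type channel, was below the filter with 2 counts in the horse serum libraries together and 24 in the STEM libraries together. Tested without the filter it was called higher (edgeR adjusted p = 0.00542, and 0.00501 without library 6).

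All 8 genes of triad structure and junctional proteins were tested. In edgeR, Trdn, Asph and Jph2 were lower with STEM when all libraries were used, and Tmem38a was also lower and Jsrp1 higher without library 6. The share called was 37.5% of the 8 and then 62.5%, against 36.4% and 50.8% of all genes. Limma-voom with quality weights called Tmem38a lower (adjusted p = 0.0181) and Jsrp1 higher (adjusted p = 0.0467) with all libraries as well. Trdn (ENSMUSG00000019787, chromosome 10, 33080554 to 33476709) encodes triadin, which ties calsequestrin to the ryanodine receptor. It was at 63.77, 69.27, 70.66, 75.75, 68 and 9.26 CPM in horse serum libraries 1 to 6 and at 30.3, 27.7, 22.39, 18.68, 20.71 and 26.49 CPM in STEM libraries 7 to 12. All STEM libraries lay below horse serum libraries 1 to 5, and horse serum library 6 lay below every STEM library. The log2 fold change was -1.28 ± 0.39 with all libraries (edgeR adjusted p = 0.0252) and -1.50 ± 0.11 without library 6 (adjusted p = 1.62e-07), or 0.353 of the horse serum level. With all libraries the call was lost without STEM library 10 or 11 or horse serum library 4 (adjusted p between 0.0514 and 0.0534) and without the filter on low counts (0.0583).

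Asph (ENSMUSG00000028207, chromosome 4, 9448069 to 9669344) encodes junctin and junctate, relatives of triadin in the reticulum, and from the same locus an aspartate beta-hydroxylase, which counts per gene cannot separate. It was at 236.5, 241, 246.3, 213.2, 225.9 and 129.5 CPM with horse serum and at 184.3, 181.1, 151.4, 148.9, 151.8 and 155.6 CPM with STEM. The STEM libraries lay between horse serum library 6 and the other 5. The log2 fold change was -0.41 ± 0.13 (edgeR adjusted p = 0.0273) and -0.52 ± 0.06 without library 6 (adjusted p = 3.07e-06). The first call was lost without any of 8 single libraries, namely STEM libraries 9 to 12 and horse serum libraries 1, 2, 3 and 5 (adjusted p between 0.0517 and 0.0601), and without the filter on low counts (0.0931).

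Jph2, a junctophilin that holds the reticulum to the T-tubule, was at 279.3 to 329.1 CPM (median 305.4) with horse serum and 235.3 to 262 CPM (median 248.8) with STEM. The groups did not overlap, also with library 6, and the log2 fold change was -0.30 ± 0.05 (edgeR adjusted p = 0.000269). Its paralog Jph1 was at 92.07 to 104.6 CPM in horse serum libraries 1 to 5, 59.65 in library 6 and 80.11 to 100.7 CPM with STEM, and passed in neither comparison. Tmem38a, a counter-ion channel of the reticulum, had a log2 fold change of -0.07 ± 0.12 with all libraries and -0.18 ± 0.04 without library 6 (edgeR adjusted p = 0.00186). Jsrp1, a junctional protein that binds the voltage sensor and calsequestrin, was at 0.22 ± 0.12 with all libraries and 0.12 ± 0.05 without library 6 (edgeR adjusted p = 0.0431), and the latter call was lost in DESeq2 (adjusted p = 0.0776), with DESeq2's size factors, with at least 10 counts in every library, and without any of 7 single libraries (adjusted p between 0.0568 and 0.142 over these). Bin1, which bends the membrane into T-tubules, and Sypl2, a synaptophysin relative of the triad with 0.2046 to 2.705 CPM, passed in neither comparison.

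**Figure D2:**
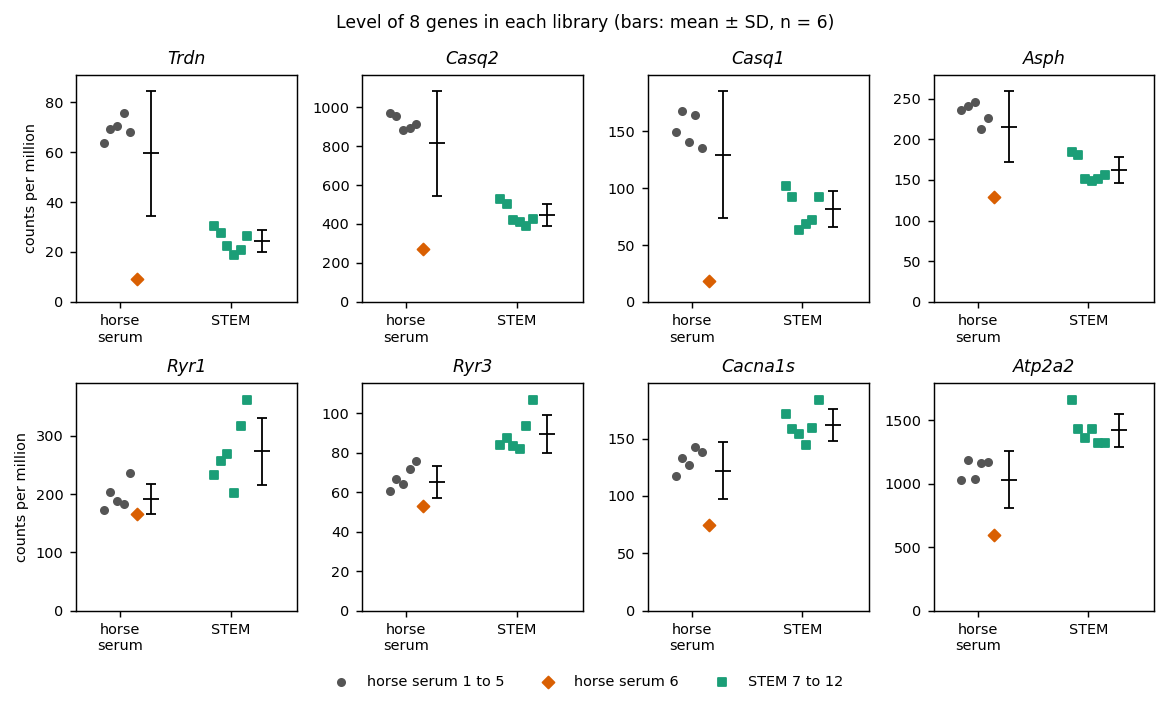
Level in CPM (y axis, from 0) of 8 genes in each library, with horse serum libraries 1 to 5 in grey, horse serum library 6 as an orange diamond, STEM libraries as green squares and bars for the mean ± SD of all 6 libraries. In Trdn, Casq2, Casq1 and Asph library 6 lies below every STEM library, and in Ryr3, Cacna1s and Atp2a2 every STEM library lies above all horse serum libraries.

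Of the 5 calcium buffers, Casq2 was called lower in edgeR with all libraries and both calsequestrins without library 6. That was 20% and 40% of the 5, against 36.4% and 50.8% of all genes. Casq2 (ENSMUSG00000027861, chromosome 3, 102086415 to 102146514), the calsequestrin of cardiac and slow muscle, was at 968.2, 952.3, 884, 894.8, 911.2 and 271.3 CPM with horse serum and at 528.4, 500.1, 419.1, 412.4, 388.7 and 424.2 CPM with STEM. Horse serum libraries 1 to 5 lay above all STEM libraries and library 6 below them. The log2 fold change was -0.87 ± 0.25 (edgeR adjusted p = 0.0188) and -1.05 ± 0.07 without library 6 (adjusted p = 7.89e-09), or 0.483 of the horse serum level. Without the filter on low counts, the adjusted p with all libraries was 0.0521.

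Casq1 (ENSMUSG00000007122, chromosome 1, 172209894 to 172219868), the calsequestrin of fast muscle, was at 149.3, 167.8, 140.8, 164.5, 135.3 and 18.42 CPM with horse serum and at 101.5, 92.32, 63.5, 68.74, 71.86 and 92.5 CPM with STEM. The order was the same as for Casq2, with library 6 far below the STEM libraries and the other 5 above them. With all libraries the log2 fold change of -0.66 ± 0.40 did not pass the test (edgeR adjusted p = 0.228). Without library 6 it was -0.89 ± 0.13 (adjusted p = 0.000262), and with limma-voom, which gave each library a quality weight, all 12 libraries gave -0.86 (adjusted p = 0.00712). The ratio of Casq2 to Casq1 per length of exon was 3.88 to 4.80 in horse serum libraries 1 to 5, 10.5 in library 6 and 3.27 to 4.71 with STEM.

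The other buffers passed in neither comparison in edgeR. Hrc, a histidine-rich protein of the store, was at 67.82 to 80.24 CPM in horse serum libraries 1 to 5, 25.53 in library 6 and 51.68 to 79.93 CPM with STEM, and passed in DESeq2 without library 6 (log2 fold change -0.23, adjusted p = 0.0433). Pvalb, the cytosolic buffer of fast fibres, was at 30.38 to 54.37 CPM in horse serum libraries 1 to 5, 4.349 in library 6 and 22.42 to 77.91 CPM with STEM. Srl, which encodes sarcalumenin, had a log2 fold change of 0.11 ± 0.04 without library 6 (edgeR adjusted p = 0.0501), and passed there in DESeq2 (adjusted p = 0.0412) and in limma-voom (0.0287), and with all libraries in limma-voom (0.036).

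Of the 3 calcium pumps tested, Atp2a2 passed in edgeR, in both comparisons. That was 33.3% of the 3 each time, against 36.4% and 50.8% of all genes. Atp2a2 (chromosome 5, 122453513 to 122502225) encodes SERCA2, a pump of slow, cardiac and developing muscle, in forms that counts per gene cannot separate. It was at 1031, 1186, 1036, 1160, 1172 and 598.5 CPM with horse serum and at 1657, 1426, 1359, 1431, 1322 and 1316 CPM with STEM. All STEM libraries lay above all horse serum libraries, with library 7 the highest. The log2 fold change was 0.46 ± 0.14 (edgeR adjusted p = 0.0172) and 0.35 ± 0.06 without library 6 (adjusted p = 8.74e-05), and the former was lost without the filter on low counts (adjusted p = 0.0784).

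Atp2a1, the pump SERCA1 of fast muscle, was at 457.8 to 499.2 CPM in horse serum libraries 1 to 5, 246.5 in library 6 and 416.9 to 588.3 CPM with STEM, with a log2 fold change of 0.19 ± 0.15 with all libraries and 0.07 ± 0.07 without library 6. It overlaps Rabep2 on the opposite strand, with 92901 counts against 3704. Per length of exon, the level of Atp2a2 was 1.27 to 1.39 times that of Atp2a1 with horse serum and 1.28 to 1.96 times with STEM, so that the groups overlapped. Atp2a3 was at 2.11 to 5.863 CPM and passed in neither comparison. Sln, which encodes the pump inhibitor sarcolipin, was below the filter, with 15 counts in the horse serum libraries together and 0 of them in the STEM libraries, and a count of 0 allows up to 3 counts. Tested without the filter it was called lower (edgeR adjusted p = 0.00208, and 0.000255 without library 6).

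The genes of store-operated entry did not pass in edgeR, in DESeq2 or in limma-voom. In edgeR this was 0% of the 2 genes tested, against 36.4% of all genes with all libraries and 50.8% without library 6. Stim1, the sensor of the store, was at 48.75 to 53.47 CPM in horse serum libraries 1 to 5, 21.64 in library 6 and 36.72 to 51.71 CPM with STEM. Orai1, the entry channel, was at 16.53 to 24.44 CPM with horse serum and 21 to 24.29 CPM with STEM. With all libraries, 1 of these 2 genes had an unadjusted p under 0.05 in edgeR (Orai1, 0.0472), and none had without library 6.

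The 3 inositol trisphosphate receptors, release channels of the reticulum that respond to hormone signals, were not called in edgeR or DESeq2 with all libraries, and none had an unadjusted p under 0.05 there. Itpr1 was at 21.42 to 25.68 CPM in horse serum libraries 1 to 5, 36.68 in library 6 and 28.17 to 34.08 CPM with STEM. Here library 6 was the highest of all 12 libraries, and the STEM libraries lay between it and the other 5. Its log2 fold change was 0.36 ± 0.07 without library 6 (edgeR adjusted p = 0.000234), and with all libraries 0.23 ± 0.11 (adjusted p = 0.129) in edgeR and 0.31 in limma-voom (adjusted p = 0.00082). Itpr2 and Itpr3 passed in neither comparison, and both were also highest in library 6, at 65.18 and 70.55 CPM. The share called in edgeR was 0% of the 3 and then 33.3%, against 36.4% and 50.8% of all genes.

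Of the exchangers and the mitochondrial uniporter, Slc8a1, the sodium-calcium exchanger of the surface membrane, was higher with STEM. It was at 46.25 to 63.19 CPM with horse serum and 66.69 to 72.21 CPM with STEM, with no overlap, a log2 fold change of 0.23 ± 0.07 (edgeR adjusted p = 0.0133) and 0.17 ± 0.04 without library 6 (adjusted p = 0.0015). Mcu, the pore of the mitochondrial uniporter, was at 71.47 to 91.14 CPM with horse serum and 77.51 to 88.48 CPM with STEM and passed in neither comparison. Slc8a1 was thus 50% of the 2 genes tested here, in both comparisons, against 36.4% and 50.8% of all genes called in edgeR. Slc8a3, the exchanger paralog of muscle, was below the filter with 50 counts in the horse serum and 42 in the STEM libraries, and without the filter it was not called (edgeR adjusted p = 0.479, and 0.209 without library 6).

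The levels of the genes were compared per length, as CPM per kb of exon. In horse serum libraries 1 to 5, Casq2 had the highest level of the set (337 ± 13.4, SD, n = 5), followed by Bin1 (229 ± 3.10), Tmem38a (185.5 ± 7.40) and Atp2a2 (183.7 ± 12.6). The last 2 differed by less than the SD of either. With STEM, Atp2a2 was highest (233 ± 20.9, SD, n = 6), then Bin1 (217 ± 11.2), Tmem38a (163.6 ± 8.53) and Casq2 (162.8 ± 20.2), and both the first pair and the last pair differed by less than the larger of their SDs. Casq2 thus led the order in horse serum libraries 1 to 5 but not with STEM. In horse serum library 6 it did not lead either. There Casq2 was at 271.3 CPM over 2736 bases of exon, and per length lay below Bin1, at 694.8 CPM over 4117 bases. Among the release channels, Ryr1 was at 9.02 ± 1.14 in horse serum libraries 1 to 5 and 12.5 ± 2.64 with STEM, above Ryr3 at 3.57 ± 0.32 and 4.71 ± 0.50. The ratio of Ryr3 to Ryr1 overlapped between the groups, with 0.3675 to 0.4517 in all 6 horse serum libraries and 0.339 to 0.464 in the STEM libraries. Trdn moved from 7.43 ± 0.46 in horse serum libraries 1 to 5 to 2.61 ± 0.48, from above to below Stim1 (4.88 ± 0.17 and 4.45 ± 0.58). In horse serum library 6, Trdn (9.26 CPM over 9352 bases) also lay below Stim1 (21.64 CPM over 10371 bases).

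**Figure D3:**
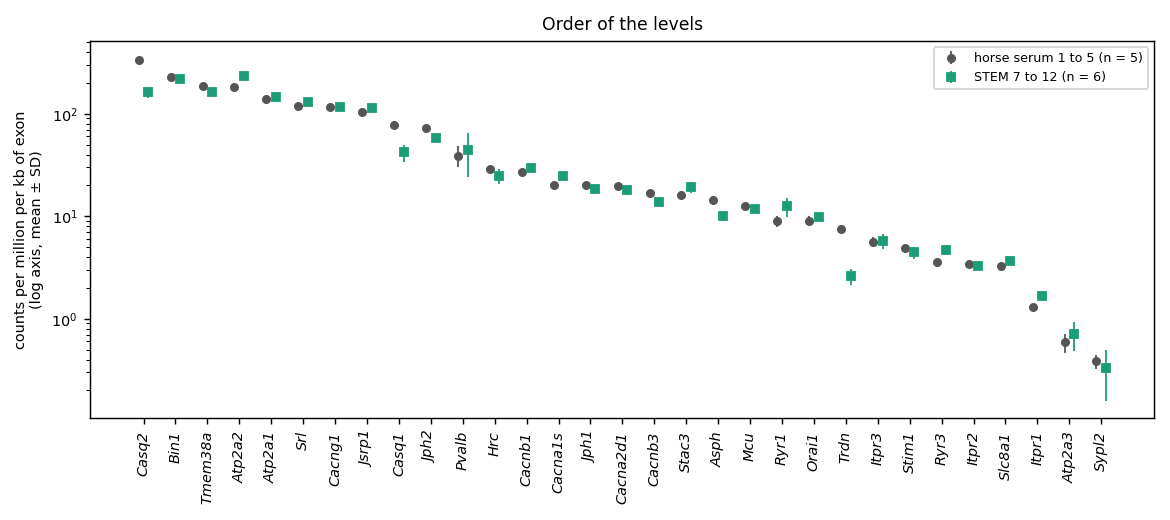
Level of the 31 genes tested in CPM per kb of exon (y axis, log scale), ordered by the mean of horse serum libraries 1 to 5 (grey, mean ± SD, n = 5) beside the STEM libraries (green, mean ± SD, n = 6). Casq2 lies highest in horse serum libraries 1 to 5 at 337, while with STEM it lies at 162.8, below Atp2a2 at 233.

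**Figure D4:**
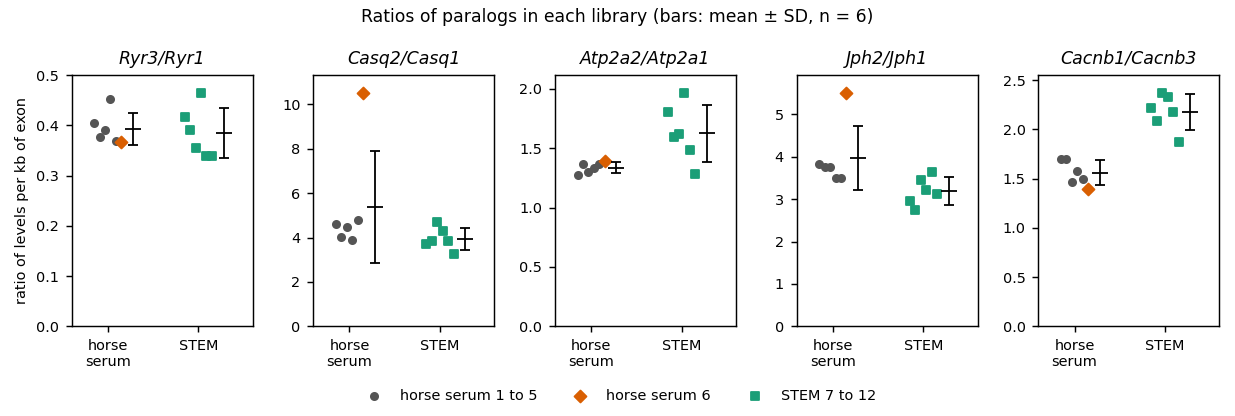
Ratio of the levels per kb of exon (y axis, from 0) of 5 pairs of paralogs in each library, with bars for the mean ± SD of the 6 libraries of a group. Cacnb1/Cacnb3 is the pair whose groups do not overlap, and library 6 lies apart at 10.5 in Casq2/Casq1.

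For 26 of the 31 genes tested (83.9%), horse serum library 6 had the lowest level of its group, and for 4 the highest (Itpr1, Itpr2, Itpr3 and Atp2a3), whereas over all genes tested it was lowest for 33.1% and highest for 35.8%. The median difference of this library from libraries 1 to 5 was -0.49 on the log2 scale for the 31 genes and 0.02 for all genes. The deficits were deepest among the buffers, at -3.16 for Pvalb, -3.03 for Casq1, -1.76 for Casq2, -1.53 for Hrc and -0.49 for Srl. The 8 junctional genes were all lowest there, from -2.89 for Trdn and -2.45 for Sypl2 to -0.16 for Jph2. The channels were closer to the other libraries, between -0.81 for Cacna1s and -0.04 for Cacnb3. All 14 myotube markers were also lowest in library 6, and the part of this in the values of the calcium genes was not tested.

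Among the 9 genes called higher with STEM without library 6, that library was the lowest of its group for 7, the highest for 1 (Itpr1) and inside for 1 (Stac3). For all 8 genes called lower it was the lowest. Both comparisons use horse serum libraries 1 to 5, so that their values are only set side by side. Casq1 was lower by 3.03 in library 6 and by 0.89 with STEM, and Trdn by 2.89 and 1.50. Atp2a2, in contrast, was at -0.90 in library 6 and 0.35 with STEM, and Cacna1s at -0.81 and 0.30. Genes that were low in library 6 thus lay on either side of 0 with STEM.

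**Figure D5:**
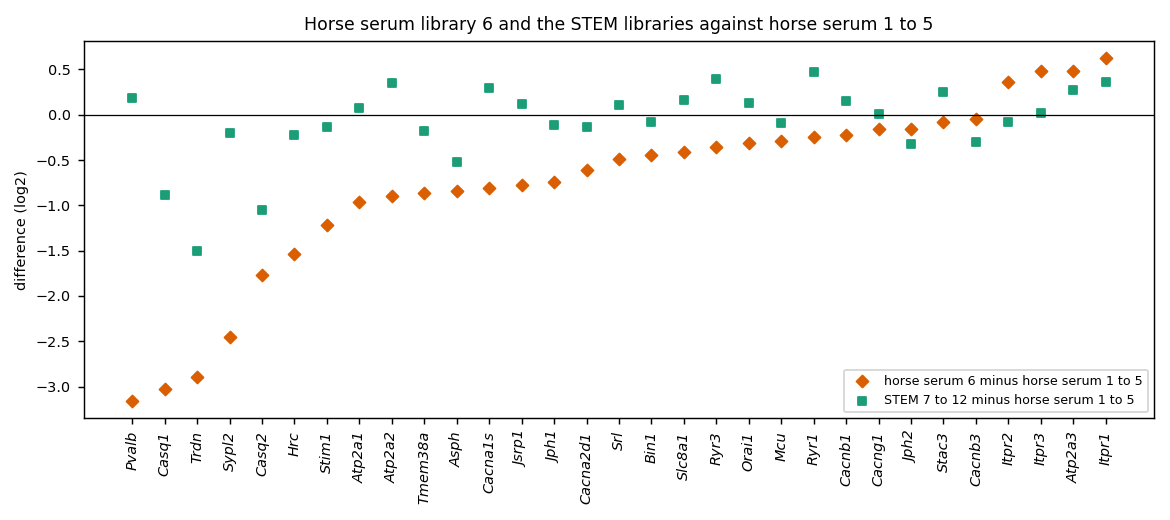
Difference on the log2 scale (y axis) of horse serum library 6 (orange diamonds) and of the STEM libraries (green squares) from horse serum libraries 1 to 5, for the 31 genes tested, ordered by library 6. The diamonds run from -3.16 for Pvalb to 0.63 for Itpr1, and the squares lie on both sides of 0 along this order.

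Other genes of calcium handling were taken from a list of 84, of which 68 were tested. With all libraries, 27 of the 68 were called in edgeR (39.7%, against 36.4% of all genes), 15 higher and 12 lower. Without library 6, 42 were called (61.8%, against 50.8% of all genes), 20 higher and 22 lower. Named here are those with the lowest adjusted p in each comparison. Mcub, an inhibitory partner of Mcu, was at 16.34 to 21.44 CPM with horse serum and at 10.63 to 11.89 CPM with STEM (log2 fold change -0.73 ± 0.07, edgeR adjusted p = 4.29e-06). Slc8b1, the mitochondrial sodium-calcium exchanger, had a log2 fold change of -0.55 ± 0.08 (edgeR adjusted p = 6.19e-05). Neither gene's groups overlapped. Rcan2, a regulator of calcineurin, changed by -1.33 ± 0.18 (edgeR adjusted p = 0.000124), and Mtmr14, a lipid phosphatase of muscle, by -0.43 ± 0.07. Hspa5, a chaperone of the reticulum that binds calcium, and Stim2, a second store sensor, were higher by 0.34 ± 0.05 and 0.25 ± 0.04.

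Without library 6, the list also held Tmem182, a muscle membrane protein of the claudin superfamily (-0.85 ± 0.05, edgeR adjusted p = 5.19e-11), and Cav3, the muscle caveolin of surface membrane and forming T-tubules (-0.66 ± 0.05, adjusted p = 8.92e-09). For both, library 6 lay below every STEM library, at 91.22 CPM against 123 to 141 and at 89.74 against 98.57 to 121.4. With all libraries the edgeR adjusted p was 0.0172 and 0.00876. Pln, which encodes the SERCA inhibitor phospholamban, was at 2.411 to 4.858 CPM in horse serum libraries 1 to 5, 0.2558 in library 6 and 0.4597 to 1.546 CPM with STEM, with a log2 fold change of -2.06 ± 0.25 without library 6 (edgeR adjusted p = 2.04e-06). As for Trdn and the calsequestrins, library 6 was below the STEM libraries and the other 5 above them. Trpv2, a cation channel, was higher by 0.82 ± 0.10 without library 6 (edgeR adjusted p = 1.62e-06). Library 6, at 9.311 CPM, lay inside its STEM range of 8.806 to 11.92 CPM.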

How the data were processed

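Total RNA of C2C12 myotubes, 6 libraries per medium, was sequenced after removal of ribosomal RNA with a strand-specific kit. The authors deposited raw read counts per Ensembl gene on build GRCm38, without normalization. The submitters' processing notes name STAR 2.7.3a, featureCounts 1.6.3 and DESeq2 1.26.0, and the annotation release and the strand setting of the counting are not given in the sources used here. Gene symbols, coordinates and exon lengths came from GENCODE M21, which lacked 260 of the listed genes.

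Counts were tested with edgeR 4.0.16 in R 4.3.3 (TMM, filterByExpr, glmQLFit with robust estimation, glmQLFTest), with Benjamini-Hochberg adjustment over all genes tested and a threshold of 0.05. The tests were tried on simulated data. CPM used TMM-normalized totals, log2 CPM a prior count of 2, and levels between genes were divided by kb of merged exons. SE was derived from the fold change and the F statistic. The differences of library 6 from libraries 1 to 5 were described without a p-value, and single libraries far from their group were marked by Dixon's ratio. The chi-square per degree of freedom between libraries of a group was at least 3.29, so that all 12 were counted as separate libraries.

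The genes of the set and the lists were chosen with earlier results of these data known. Full values are given for genes called with an absolute log2 fold change of 0.5 or more in either comparison and their paralogs, and of the 84 other calcium genes for the 6 with the lowest adjusted p in each. Values of other genes of the set were added after they were seen. Alternatives were DESeq2 1.42.0, its size factors, limma-voom with quality weights (limma 3.58.1), library totals only, no filter, at least 10 counts in every library, an adjusted p of 0.01, and leaving out each library in turn.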

Additional observations from a re-analysis of the deposited data

Results flagged for a closer look

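A library was marked when its gap to the nearest library, divided by the range of its group of 6, was above Dixon's critical ratio for 6 values at the 0.05 level. This happened in 22 of 62 groups (31 genes in each medium), where chance marks about 1 in 20, and 19 of the 22 were horse serum library 6. The share of marked groups over all genes was not counted. Over all genes tested, library 6 was the lowest of its group for 33.1% and the highest for 35.8%, beside 83.9% and 12.9% of the 31 genes of the set. It thus lay at an end of its group for many genes outside the set too, but was more often the lowest within it. Among the marks, library 6 was lowest for 17 genes. Among channels these were Cacna1s at 74.8 CPM and Cacna2d1 at 160.3. Among junctional genes they were Jph1 at 59.65 CPM, Trdn at 9.26, Asph at 129.5, Jsrp1 at 81.19, Sypl2 at 0.2046, Tmem38a at 217.3 and Bin1 at 694.8. The pumps Atp2a1 at 246.5 CPM and Atp2a2 at 598.5 were marked as well, and so were the buffers Casq1 at 18.42 CPM, Casq2 at 271.3, Hrc at 25.53 and Srl at 455.5. Stim1 at 21.64 CPM and Slc8a1 at 46.25 complete the low values. It was highest for Itpr1 at 36.68 CPM and Itpr2 at 65.18. In the STEM group, library 12 was highest for Cacnb3 at 62.25 CPM and for Itpr2 at 55.59, and library 7 was highest for Atp2a2 at 1657 CPM. The genes are not independent, since each value comes from the same libraries.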

How the results depend on the processing

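No paired analysis was possible because the groups share no replicate numbers. At an adjusted p of 0.01, 4 genes of the set were called in edgeR with all 12 libraries (Ryr1, Ryr3, Cacnb3 and Jph2). Trdn, Casq2, Cacna1s and Atp2a2 were thus not called there, and the share of all genes at this threshold was not counted. In DESeq2 with all 12 libraries these genes were under 0.01 (adjusted p = 0.00451, 0.00411, 0.00739 and 0.00381). In edgeR without library 6 they were as well (adjusted p up to 0.000591), whereas Ryr1 was not (0.026). Leaving out each library in turn gave 10 to 17 called genes with all 12 libraries, 17 without horse serum library 6, and 15 to 19 when a further library was left out beside it. Over all genes, the first step gave 4459 to 7245 calls among 14255 to 14307 genes tested, with 7245 again without library 6. The second step gave 6690 to 7138 calls among 14134 to 14408 genes. Of the 68 other calcium genes tested, 22 to 42 were called when each library was left out in turn. The 42 came without horse serum library 6, where they were 61.8%, against 50.8% of all genes. Limma-voom with quality weights called 18 genes of the set and 40 of the other calcium genes with all 12 libraries, where it called 51.4% of all genes tested, against 36.4% in edgeR. The median log2 fold change of the set without library 6 was 0.048 with library totals only and between -0.0443 and 0.0137 when a further library was left out. With library totals only, the median difference of library 6 from libraries 1 to 5 was -0.36. No gene of the set called in edgeR in either comparison reversed its direction under any alternative run. Genes near 0 that were not called changed sign between tools: Stim1 (0.01 in edgeR, -0.09 in limma-voom) and Sypl2 (0.05, -0.25) with all libraries, and Cacng1 (0.0048, -0.00028) and Itpr3 (0.02, -0.02) without library 6. Other scalings moved the median of all genes by at most 0.0423. Without the filter, Cacna1h and Sln, with at most 8 counts in any library, were called in both comparisons.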
